A study of Mus musculus with 12 samples.

Results

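The annexin genes Anxa1, Anxa2, Anxa3, Anxa4, Anxa5, Anxa6, Anxa7 and Anxa11 were followed in RNA from whole mouse bone marrow, by taking the rows of the gene count table that carry these 8 symbols. They are 8 of the 24415 genes in the table, and 8 of 8 passed the filter on low counts, which left 15283 genes for testing. Marrow came from female C57BL/6J mice that were 8 weeks old, in 3 groups of 4 libraries. One group had a flame burn and an antibody against granulocyte colony-stimulating factor (G-CSF), a driver of neutrophil production, and holds replicates 9 to 12. The second had a flame burn and an isotype control antibody (replicates 5 to 8), and the third a sham injury and the same isotype antibody (replicates 1 to 4). Antibody dosing began 12 hours before injury, was repeated at injury and went on daily, with harvest on day 7. All mice therefore received an antibody, and sham mice given anti-G-CSF were not analysed here. The title of the study places its question in the loss of erythroblastic island macrophages and of red cell production after burn.

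Annexins are proteins that bind to membranes rich in acidic phospholipids when calcium is present. Each has a core of repeated calcium-binding folds, joined to an amino-terminal tail that differs between members and takes up partner proteins such as those of the S100 family. In myeloid cells they are known for roles in granule release, in membrane repair and in the control of inflammation, the last best described for annexin A1, which is carried by neutrophils and acts on the receptor Fpr2.

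The tail is where members differ most, so the first 60 coding bases are shown for 4 genes whose tails are well studied, with the start codon in capitals. They are from the GENCODE transcripts of GRCm38, on the minus strand for Anxa1 and Anxa7 and the plus strand for Anxa2 and Anxa11.
Anxa1: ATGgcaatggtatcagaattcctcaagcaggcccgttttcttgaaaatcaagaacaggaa
Anxa2: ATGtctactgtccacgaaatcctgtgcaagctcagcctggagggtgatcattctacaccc
Anxa7: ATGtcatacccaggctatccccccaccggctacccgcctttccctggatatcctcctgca
Anxa11: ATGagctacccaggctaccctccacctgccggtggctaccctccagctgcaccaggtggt
The Anxa1 tail binds S100a11 and gives rise to peptides that act on formyl peptide receptors, while the Anxa2 tail binds S100a10. Anxa7 and Anxa11 have long tails. Their coding sequences hold 463 and 503 codons, against 346 for Anxa1, 339 for Anxa2, 323 for Anxa3 and 319 each for Anxa4 and Anxa5. Anxa6, whose core is doubled, has 673 codons. Over the 21 pairs without Anxa6, aligned coding bases were identical at 58.1% (Anxa2 and Anxa5) to 65.4% (Anxa2 and Anxa11) of positions.

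On build mm10 the genes lie on 7 chromosomes. Anxa1 is at chr19:20373434-20390671 (minus strand), Anxa2 at chr9:69453683-69491785 (plus), Anxa3 at chr5:96793385-96845968 (plus) and Anxa4 at chr6:86736840-86793584 (minus). Anxa5 is at chr3:36448924-36475887 (minus), Anxa6 at chr11:54978953-55033471 (minus), Anxa7 at chr14:20455261-20480133 (minus) and Anxa11 at chr14:25842155-25886804 (plus). No stretch of 50 transcript bases was shared between annexins. Of the 4179 such stretches of Anxa11, 16.2% also occur in other genes, most in the predicted genes Gm2260 and Gm2274 and the rest in the antisense gene Anxa11os, so its counts are less certain than those of Anxa1, Anxa5, Anxa6 and Anxa7, for which the share was 0%. It was 1.35% for Anxa2, 1.80% for Anxa3 and 1.37% for Anxa4.

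The libraries held 18780399 to 25708084 gene counts. Marker genes of neutrophils, monocytes, resident macrophages, B lineage and red cell precursors were present in all groups, although 3 of the 4 adult hemoglobin genes in the list were listed at 0 in all 12 libraries and the other failed the filter. Brain, heart and lens genes were detected as well. The summed level of 16 brain genes was 832 to 1557 CPM (counts scaled to the same total in each library) with anti-G-CSF after burn, 487 to 928 CPM in burn isotype marrow and 550 to 645 CPM in sham marrow. It was highest in replicates 9 and 12, and results are therefore also given without these libraries.

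Anxa1 was the annexin with the highest level per length in every group, and its level was highest in burn isotype marrow. Levels of different genes were compared as CPM per kilobase of exon sequence. This length joins the exons of all annotated transcripts of a gene, from 1.777 kilobases for Anxa5 to 5.991 for Anxa7. It is not the length of the transcripts present, so the order of genes and their shares depend on the annotation too. For Anxa1 this was 277 ± 35.8 with anti-G-CSF after burn, 881 ± 115 in burn isotype marrow and 424 ± 40.9 in sham marrow (SD, n = 4 each). Anxa2 came second at 91.4 ± 14.7, 205 ± 29.7 and 115 ± 11 CPM per kilobase in these groups, and Anxa4 last at 3.81 ± 0.371, 4.25 ± 0.428 and 3.63 ± 0.485. Between these ends the order varied. Anxa11 stood at 42.3 ± 6.00, 94.4 ± 11.7 and 57.3 ± 1.13 CPM per kilobase, and Anxa5 at 65.2 ± 8.06, 91.4 ± 14.2 and 70.8 ± 4.22. In burn isotype marrow the libraries of these 2 genes overlapped, as did those of Anxa6 (52.5 ± 4.64) and Anxa3 (47.5 ± 5.63). In sham marrow Anxa11 and Anxa6 (56.6 ± 3.39) overlapped. With anti-G-CSF after burn the pairs Anxa2 and Anxa5, Anxa5 and Anxa6, Anxa6 and Anxa11, and Anxa3 and Anxa7 (19 ± 2.53 and 17.8 ± 0.194) overlapped. Overlap ignores that both genes of a pair come from the same libraries. Within every anti-G-CSF library Anxa2 exceeded Anxa5, Anxa5 exceeded Anxa6 and Anxa6 exceeded Anxa11. Anxa6 likewise exceeded Anxa3 in every burn isotype library. The order changed between libraries for Anxa11 and Anxa5 in burn isotype marrow, Anxa11 and Anxa6 in sham, and Anxa3 and Anxa7 with anti-G-CSF. Of the 8 genes' summed level per kilobase, Anxa1 made up 48.7% ± 0.901 with anti-G-CSF after burn, 62.9% ± 0.641 in burn isotype marrow and 54.7% ± 1.60 in sham marrow.

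**Figure D1:**
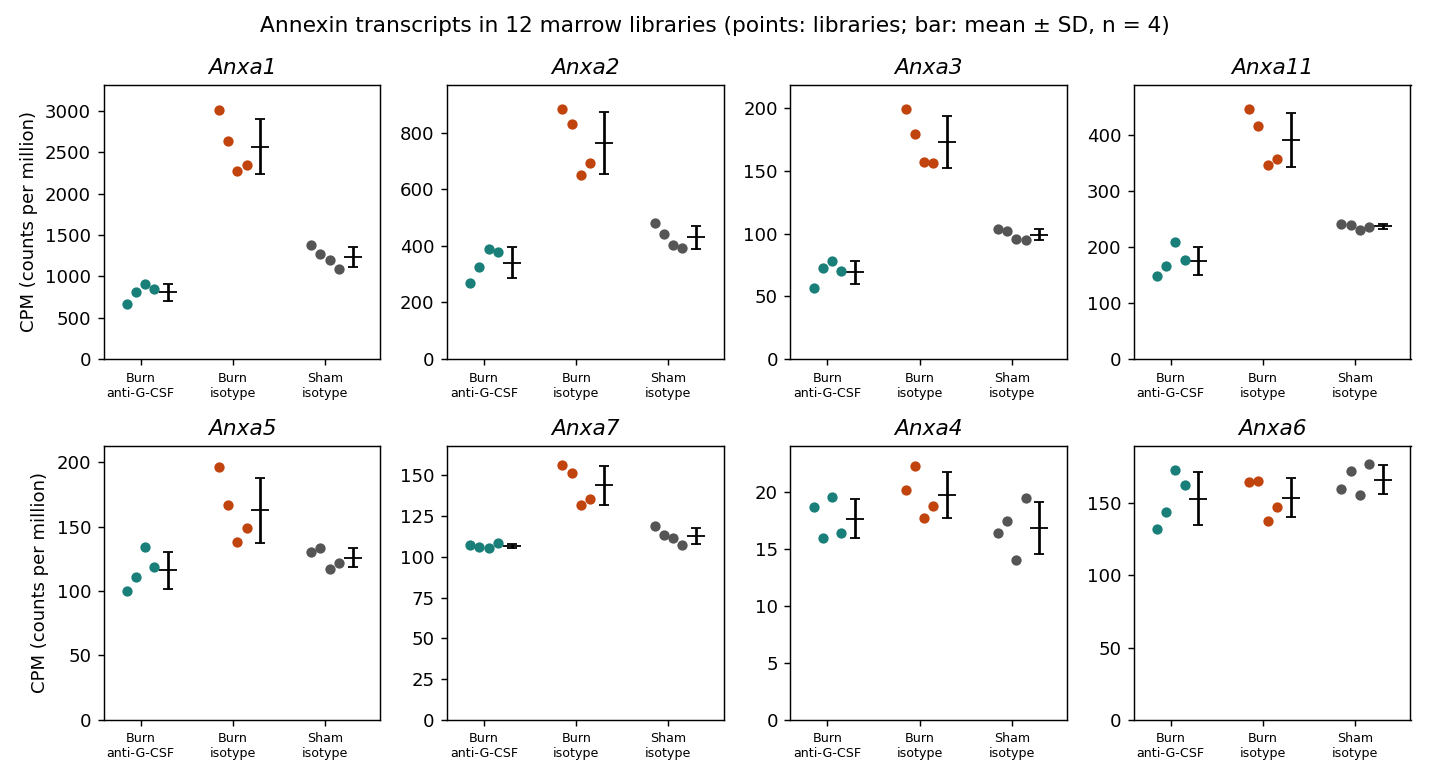
CPM of the 8 annexin genes in each library (points), by group, with the mean ± SD of 4 libraries beside them; each panel has its own linear axis from 0. The burn isotype libraries stand above both other groups for Anxa1, Anxa2, Anxa3, Anxa11, Anxa5 and Anxa7, while groups overlap for Anxa4 and Anxa6.

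Burn raised 6 of the 8 annexin transcripts relative to sham, Anxa1 most, and lowered none. Across all genes tested 11.1% were called higher and 9.92% lower at an adjusted p under 0.05, and 12.9% stood above sham without overlap between groups, as these 6 did. The median log2 fold change of the 8 genes was 0.55, against -0.00026 over all genes. Whether more cells of a type or more transcript per cell lay behind a difference cannot be told apart in whole marrow. The same limit holds for each comparison here.

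Anxa1 held 3007, 2631, 2277 and 2339 CPM in burn isotype replicates 5 to 8, against 1377, 1268, 1198 and 1093 CPM in sham replicates 1 to 4. The lowest burn library exceeded the highest sham library. The log2 fold change was 1.05 ± 0.11 (SE), with an edgeR adjusted p of 1.12e-05, and by p it ranked 42 of 15283 genes.

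Anxa2, which with S100a10 forms a surface complex that binds tissue plasminogen activator, had 884, 830, 650 and 692 CPM after burn and 482, 442, 402 and 393 CPM in sham marrow. Anxa3, an annexin that promotes granule aggregation in human neutrophils, had 199, 180, 157 and 156 CPM after burn and 104, 102, 95.8 and 95.1 CPM in sham marrow. Anxa11, which binds S100a6 and the calcium sensor Pdcd6, had 446, 415, 345 and 356 CPM after burn and 241, 239, 231 and 236 CPM in sham marrow. All 3 genes were higher in every burn library than in any sham library, and in each the first 2 burn libraries were above the others. Their log2 fold changes were 0.83 ± 0.12 for Anxa2 (edgeR adjusted p = 0.000128), 0.80 ± 0.10 for Anxa3 (adjusted p = 2.61e-05) and 0.72 ± 0.10 for Anxa11 (adjusted p = 6.80e-05).

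Anxa5 and Anxa7 rose by less. Anxa5, the phosphatidylserine binder used to stain dying cells, had 196, 167, 138 and 149 CPM after burn and 130, 133, 117 and 122 CPM in sham marrow. Anxa7, which binds the calcium-binding protein sorcin, had 156, 152, 132 and 135 CPM after burn and 119, 113, 112 and 108 CPM in sham marrow. Neither gene's groups overlapped, although the lowest burn library of Anxa5 was close to the highest sham library. The log2 fold changes were 0.37 ± 0.10 (edgeR adjusted p = 0.0158) for Anxa5 and 0.35 ± 0.07 (adjusted p = 0.00131) for Anxa7. Without sham replicate 3, sham replicate 4 or burn replicate 5 the Anxa5 call was lost (edgeR adjusted p = 0.0664, 0.0580 and 0.0733).

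The groups overlapped for the 2 other members. Anxa4 had 20.2, 22.3, 17.7 and 18.8 CPM after burn and 16.4, 17.5, 14.1 and 19.5 CPM in sham marrow, a log2 difference of 0.23 ± 0.12 (edgeR adjusted p = 0.209). Anxa6 had 165, 165, 138 and 147 CPM after burn and 160, 172, 155 and 177 CPM in sham marrow, a log2 difference of -0.11 ± 0.09 (edgeR adjusted p = 0.440). Neither passed the threshold.

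With anti-G-CSF the same 6 genes fell relative to burn isotype marrow, and none rose. Of all genes tested 16.9% were called lower and 17.7% higher in this comparison, and 16.0% stood below burn isotype marrow without overlap, as these 6 did. The median log2 fold change was -0.82 for the 8 annexins and 0.08 over all genes. Since burn isotype libraries serve as the comparison group here and as the injured group above, the 2 sets of values are not independent.

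Anxa1 fell to 659, 812, 901 and 851 CPM in anti-G-CSF replicates 9 to 12, against the 2277 to 3007 CPM of burn isotype marrow. The highest anti-G-CSF library was below the lowest library of either other group. The log2 fold change was -1.67 ± 0.12 (edgeR adjusted p = 2.53e-08, rank 17 of 15283 genes by p).

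Anxa2 had 270, 326, 390 and 377 CPM with anti-G-CSF, against 650 to 884 CPM in burn isotype marrow. Anxa3 had 56.4, 72.6, 78.2 and 69.9 CPM with anti-G-CSF, against 156 to 199 CPM in burn isotype marrow. Anxa11 had 149, 167, 208 and 176 CPM with anti-G-CSF, against 345 to 446 CPM in burn isotype marrow. For each of the 3, replicate 9 was the lowest and replicate 11 the highest of the anti-G-CSF libraries, and all 4 lay below every burn isotype library. The log2 fold changes were -1.16 ± 0.12 for Anxa2 (edgeR adjusted p = 1.47e-06), -1.32 ± 0.10 for Anxa3 (adjusted p = 3.98e-08) and -1.16 ± 0.10 for Anxa11 (adjusted p = 1.57e-07).

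Anxa5 had 100.1, 111, 134 and 118 CPM with anti-G-CSF, against 138 to 196 CPM in burn isotype marrow. Anxa7 had 107, 106, 106 and 108 CPM with anti-G-CSF, against 132 to 156 CPM in burn isotype marrow. Both fell without overlap, by 0.49 ± 0.10 (edgeR adjusted p = 0.00155) and 0.43 ± 0.07 (adjusted p = 0.000118) on the log2 scale. Anxa4, at 18.7, 16.0, 19.6 and 16.5 CPM with anti-G-CSF, and Anxa6, at 132, 144, 173 and 162 CPM, overlapped the burn isotype libraries. Their log2 differences of -0.16 ± 0.12 (edgeR adjusted p = 0.320) and -0.01 ± 0.09 (adjusted p = 0.952) did not pass the threshold, and their sign depended on how libraries were scaled.

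Without replicates 9 and 12 the 6 falls were still called, with log2 fold changes of -1.57 for Anxa1, -1.08 for Anxa2, -1.19 for Anxa3, -1.05 for Anxa11, -0.40 for Anxa5 and -0.43 for Anxa7. With the mean level of the brain genes as a covariate 5 were called, and Anxa5 was not (log2 fold change -0.33, edgeR adjusted p = 0.0794). Anxa1 then stood at -1.53 and Anxa3 at -1.15.

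Set against sham marrow, anti-G-CSF marrow after burn had less Anxa1, Anxa3 and Anxa11. Of all genes 3.91% were called lower and 7.09% higher in this comparison, and 6.96% stood below sham without overlap. The log2 fold changes were -0.61 ± 0.11 for Anxa1 (edgeR adjusted p = 0.00705), -0.52 ± 0.10 for Anxa3 (adjusted p = 0.00741) and -0.44 ± 0.10 for Anxa11 (adjusted p = 0.0153). Every anti-G-CSF library lay below every sham library for these 3 genes, and also for Anxa2, whose log2 difference of -0.33 ± 0.12 did not pass (edgeR adjusted p = 0.0810). The 3 calls were lost without replicates 9 and 12, where the edgeR adjusted p was 0.122 for Anxa1, 0.145 for Anxa3 and 0.278 for Anxa11 and the log2 fold changes were -0.53, -0.40 and -0.34. They were also lost with the brain gene level as a covariate (log2 fold changes -0.45, -0.32 and -0.24, edgeR adjusted p = 0.641, 0.765 and 0.950). Few genes of any kind were called in these settings. Without those replicates 18 of 15598 genes were higher and 17 lower, and with the covariate 10 of 15283 were higher and 4 lower. With all 12 libraries and no covariate these counts were 1083 and 598. The Anxa11 call was lost without replicate 9 alone (edgeR adjusted p = 0.0550) and did not reach a threshold of 0.01. The other members differed from sham by 0.07 (Anxa4), -0.12 (Anxa5), -0.12 (Anxa6) and -0.08 (Anxa7) on the log2 scale, with edgeR adjusted p of 0.789, 0.544, 0.452 and 0.537.

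**Figure D2:**
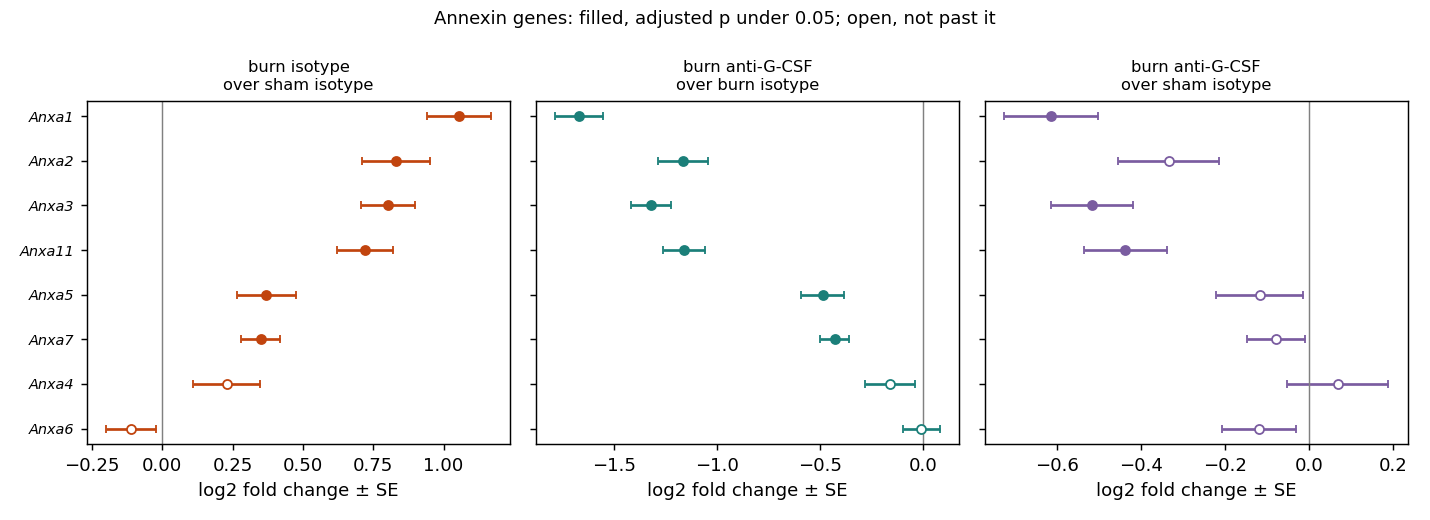
Log2 fold changes (points) with SE (bars) of the 8 annexin genes in 3 comparisons named above each panel; filled points had an edgeR adjusted p under 0.05, open points did not, and the horizontal scales differ between panels. Anxa1 lies farthest from 0 in all 3 panels (1.05, -1.67 and -0.61), and Anxa4 and Anxa6 are open in all 3.

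The larger fold changes of Anxa1 can also be read as each gene's count over the Anxa1 count of the same library, which no scaling of libraries can alter. Anxa1 was taken as the denominator after its fold changes were seen to be the largest of the 8, so these ratios describe that difference and were not tested. The log2 ratio to Anxa1 was lower in burn isotype marrow than in sham marrow by 0.23 for Anxa2, 0.26 for Anxa3, 0.34 for Anxa11, 0.69 for Anxa5, 0.70 for Anxa7, 0.82 for Anxa4 and 1.16 for Anxa6. For Anxa6 it averaged -4.05 ± 0.09 after burn and -2.89 ± 0.20 in sham marrow (SD, n = 4 each).

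With anti-G-CSF the log2 ratio was higher than in burn isotype marrow by 0.35 for Anxa3, 0.50 for Anxa2, 0.51 for Anxa11, 1.19 for Anxa5, 1.25 for Anxa7, 1.51 for Anxa4 and 1.66 for Anxa6. The difference was smallest for Anxa3 and largest of these 7 for Anxa6, at a log2 ratio of -2.40 ± 0.07 with anti-G-CSF and -4.05 ± 0.09 in burn isotype marrow (SD, n = 4 each). Both sets of differences share the burn isotype libraries. Against sham marrow the ratios with anti-G-CSF overlapped for Anxa3 (difference 0.09) and Anxa11 (0.17), and were higher by 0.27 for Anxa2 and by 0.49 to 0.69 for the other 4 genes.

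**Figure D3:**
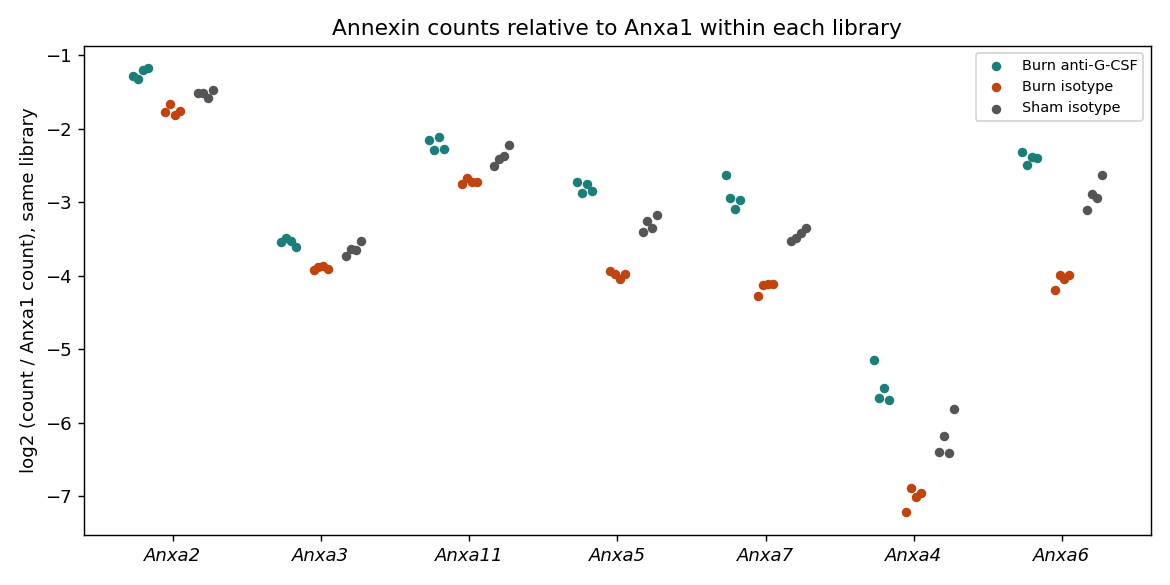
Log2 of each gene's count over the Anxa1 count in the same library (vertical axis), by gene and group; each point is a library. The burn isotype points lie lowest for all 7 genes, with no overlap with either other group.

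Across the 12 libraries, group differences included, Anxa1, Anxa2, Anxa3 and Anxa11 followed each other closely. Anxa5 and Anxa7 followed them somewhat less closely, and Anxa4 and Anxa6 far less. Pearson r of log2 CPM was 0.996 for Anxa1 with Anxa3, 0.990 with Anxa11, 0.986 with Anxa2, 0.951 with Anxa7 and 0.899 with Anxa5. It was 0.437 for Anxa1 with Anxa4 and 0.104 with Anxa6. After the group means were removed r was 0.941 for Anxa1 with Anxa3, 0.898 with Anxa5, 0.860 with Anxa11 and 0.700 with Anxa7. Anxa6 was then closer to these genes, at 0.659 with Anxa1, 0.762 with Anxa3, 0.794 with Anxa2 and 0.886 with Anxa11. For Anxa4 it was 0.038 with Anxa1, 0.169 with Anxa3, 0.213 with Anxa2 and 0.409 with Anxa11. These values are descriptions, since the points share their groups, their library totals and the mix of cells in each library.

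The genes most like each member were sought among 9882 genes that averaged at least 3 on the log2 CPM scale. Predicted or provisionally named genes, such as those with Gm or Rik names, were left out of this pool. So were the gene segments that encode antibodies and the antigen receptors of T cells. The nearest genes named here are therefore the nearest within this pool only. Anxa1 was nearest to Ltf, which encodes the granule protein lactoferrin (r = 0.997), and to the integrin gene Itgb2l (0.997). Anxa3 was nearest to Itgb2l (0.998) and to Cd177 (0.997), a neutrophil surface protein gene. Anxa2 was nearest to Lgals3, the galectin-3 gene (0.997), and to the adaptor gene Skap2 (0.996), and Anxa11 to the vesicle GTPase gene Rab27a (0.998) and the actin-binding protein gene Lasp1 (0.997). For Anxa5 they were Pitpna (0.982) and Adprh (0.978), and for Anxa7 Tspo (0.988) and Prelid1 (0.987). The nearest genes to Anxa4 and Anxa6 were less close, with Itpk1 (0.873) and Trp53bp2 (0.857) for Anxa4 and Ints5 (0.900) and Gpr183 (0.889) for Anxa6.

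Of the 4 annexin genes outside the 8, Anxa9 alone passed the filter. It had 4.60, 4.88, 4.02 and 4.33 CPM with anti-G-CSF after burn, 5.23, 5.49, 7.08 and 5.27 CPM in burn isotype marrow and 5.36, 4.06, 4.32 and 3.51 CPM in sham marrow. No comparison passed, with log2 differences of 0.42 ± 0.20 for burn against sham (edgeR adjusted p = 0.156) and -0.37 ± 0.20 for anti-G-CSF against burn isotype (adjusted p = 0.149). Anxa8 had 19 counts in replicate 9 and 0 to 4 in the other libraries. Anxa10 had 0 to 1 counts and Anxa13 0 to 2.

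Partners and receptors of annexins moved in the same direction as Anxa1 where they passed. After burn 7 of 11 rose relative to sham and 0 fell, with a median log2 fold change of 0.42. With anti-G-CSF 9 of 11 fell relative to burn isotype marrow and 0 rose (median -0.53), and 4 of 11 were lower than in sham marrow and 0 higher (median -0.16). Without replicates 9 and 12, and equally with the brain covariate, 6 of 11 were lower than in burn isotype marrow, and 0 of 11 were called against sham marrow. With all 12 libraries and no covariate, the medians over all genes and the shares called are those given above for each comparison. Without replicates 9 and 12, 1739 of 15598 genes were lower than in burn isotype marrow and 1280 higher. With the brain covariate 1558 of 15283 were lower and 1348 higher. For burn against sham 1771 and 2031 genes were higher in these settings, and the counts for anti-G-CSF against sham are given above. The same counts stand beside the lists below.

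Fpr2, the receptor on which annexin A1 acts, averaged 117 ± 22.7 CPM with anti-G-CSF after burn, 353 ± 38.6 CPM in burn isotype marrow and 180 ± 11.3 CPM in sham marrow (SD, n = 4 each), with no overlap between any 2 groups. Its log2 fold change was 0.97 ± 0.12 for burn against sham (edgeR adjusted p = 2.71e-05) and -1.59 ± 0.12 for anti-G-CSF against burn isotype (adjusted p = 4.99e-08). The formyl peptide receptor Fpr1 rose by 0.74 after burn and fell by 1.24 with anti-G-CSF on the log2 scale (edgeR adjusted p = 0.000202 and 5.09e-07).

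The S100 proteins that bind annexin tails did not all move alike. S100a6, a partner of annexin A11, rose by 0.99 ± 0.13 after burn (edgeR adjusted p = 5.06e-05) and fell by 1.56 ± 0.13 with anti-G-CSF (adjusted p = 1.59e-07) on the log2 scale. S100a10, the partner of Anxa2, averaged 125 ± 4.63 CPM with anti-G-CSF after burn, 142 ± 10.6 CPM in burn isotype marrow and 133 ± 18.3 CPM in sham marrow (SD, n = 4 each). No comparison of S100a10 passed, with log2 differences of 0.10 ± 0.09 for burn against sham (edgeR adjusted p = 0.507) and -0.18 ± 0.09 for anti-G-CSF against burn isotype (adjusted p = 0.116). S100a11, a partner of annexin A1, rose by 0.42 after burn and fell by 1.12 with anti-G-CSF (edgeR adjusted p = 0.0236 and 3.85e-06). S100a4 rose by 0.77 after burn (edgeR adjusted p = 0.000422), and Sri, the sorcin gene, fell by 0.72 with anti-G-CSF (adjusted p = 3.34e-06). In group means S100a4 also went from 127 CPM in burn isotype marrow to 89.6 CPM with anti-G-CSF. Sri went from 169 CPM in sham marrow to 234 CPM in burn isotype marrow. Neither of these differences had overlapping libraries.

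Among 10 genes of membrane repair, 6 rose after burn and 0 fell (median log2 fold change 0.28). With anti-G-CSF 7 fell and 1 rose relative to burn isotype marrow (median -0.37), and 1 was lower than in sham marrow and 0 higher (median -0.02). Myof, a ferlin that acts in membrane fusion, rose by 1.01 ± 0.16 after burn (edgeR adjusted p = 0.000221). The calcium-dependent protease gene Capn1 rose by 0.49 ± 0.09 after burn and fell by 0.77 ± 0.09 with anti-G-CSF (edgeR adjusted p = 0.000549 and 2.95e-06). The rise was that of Dysf, the dysferlin gene, at 4.89 CPM with anti-G-CSF and 2.64 CPM in burn isotype marrow (group means, edgeR adjusted p = 0.0290), with groups that overlapped. Without replicates 9 and 12, 7 falls and 0 rises were called relative to burn isotype marrow. With the brain covariate 4 falls and 0 rises were called, and in both settings 0 of 10 were called against sham marrow.

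Of 9 genes tied to flippases and scramblases, the proteins that move phosphatidylserine between the leaflets of the membrane, 4 rose after burn and 0 fell (median 0.21). With anti-G-CSF 7 fell relative to burn isotype marrow and 0 rose (median -0.39), and 1 was lower than in sham marrow (median -0.16). Without replicates 9 and 12, and equally with the brain covariate, 4 fell relative to burn isotype marrow and 0 were called against sham marrow. The scramblase gene Plscr1 averaged 28.6 ± 2.21 CPM with anti-G-CSF after burn, 82.9 ± 11 CPM in burn isotype marrow and 38.9 ± 2.94 CPM in sham marrow (SD, n = 4 each). Its log2 fold change was 1.09 ± 0.09 for burn against sham (edgeR adjusted p = 1.74e-06) and -1.53 ± 0.10 for anti-G-CSF against burn isotype (adjusted p = 1.11e-08). The flippase gene Atp11a rose by 1.36 ± 0.11 after burn and fell by 1.38 ± 0.11 with anti-G-CSF (edgeR adjusted p = 1.70e-06 and 1.35e-07), and did not differ detectably from sham with anti-G-CSF (log2 difference -0.01 ± 0.11, adjusted p = 0.959).

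The 9 copines, another family of calcium-dependent phospholipid binders, were split. After burn 3 rose and 0 fell (median 0.34). With anti-G-CSF 3 fell and 1 rose relative to burn isotype marrow, and the median was positive (0.67), while against sham 2 were lower and 2 higher (median 0.27). Cpne3 rose by 0.86 ± 0.09 after burn and fell by 1.17 ± 0.10 with anti-G-CSF, and Cpne2 rose by 0.57 ± 0.08 and fell by 1.04 ± 0.08 (edgeR adjusted p = 1.32e-05, 8.76e-08, 9.55e-05 and 6.34e-08). Cpne6, a copine of brain, was higher with anti-G-CSF than in burn isotype marrow (25.7 and 14.5 CPM, group means, edgeR adjusted p = 0.0178) and than in sham marrow (10.7 CPM, adjusted p = 0.0124). The brain markers were higher with anti-G-CSF too, and without replicates 9 and 12 or with the brain covariate 0 copines were called higher in either comparison, 3 lower than burn isotype marrow and 0 lower than sham marrow. The copine median relative to burn isotype marrow was 0.28 without those libraries and -0.19 with the covariate, and that against sham 0.20 and -0.05. Over all genes these medians were 0.063 and 0.037 relative to burn isotype marrow, and -0.0072 and 0.011 against sham.

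**Figure D4:**
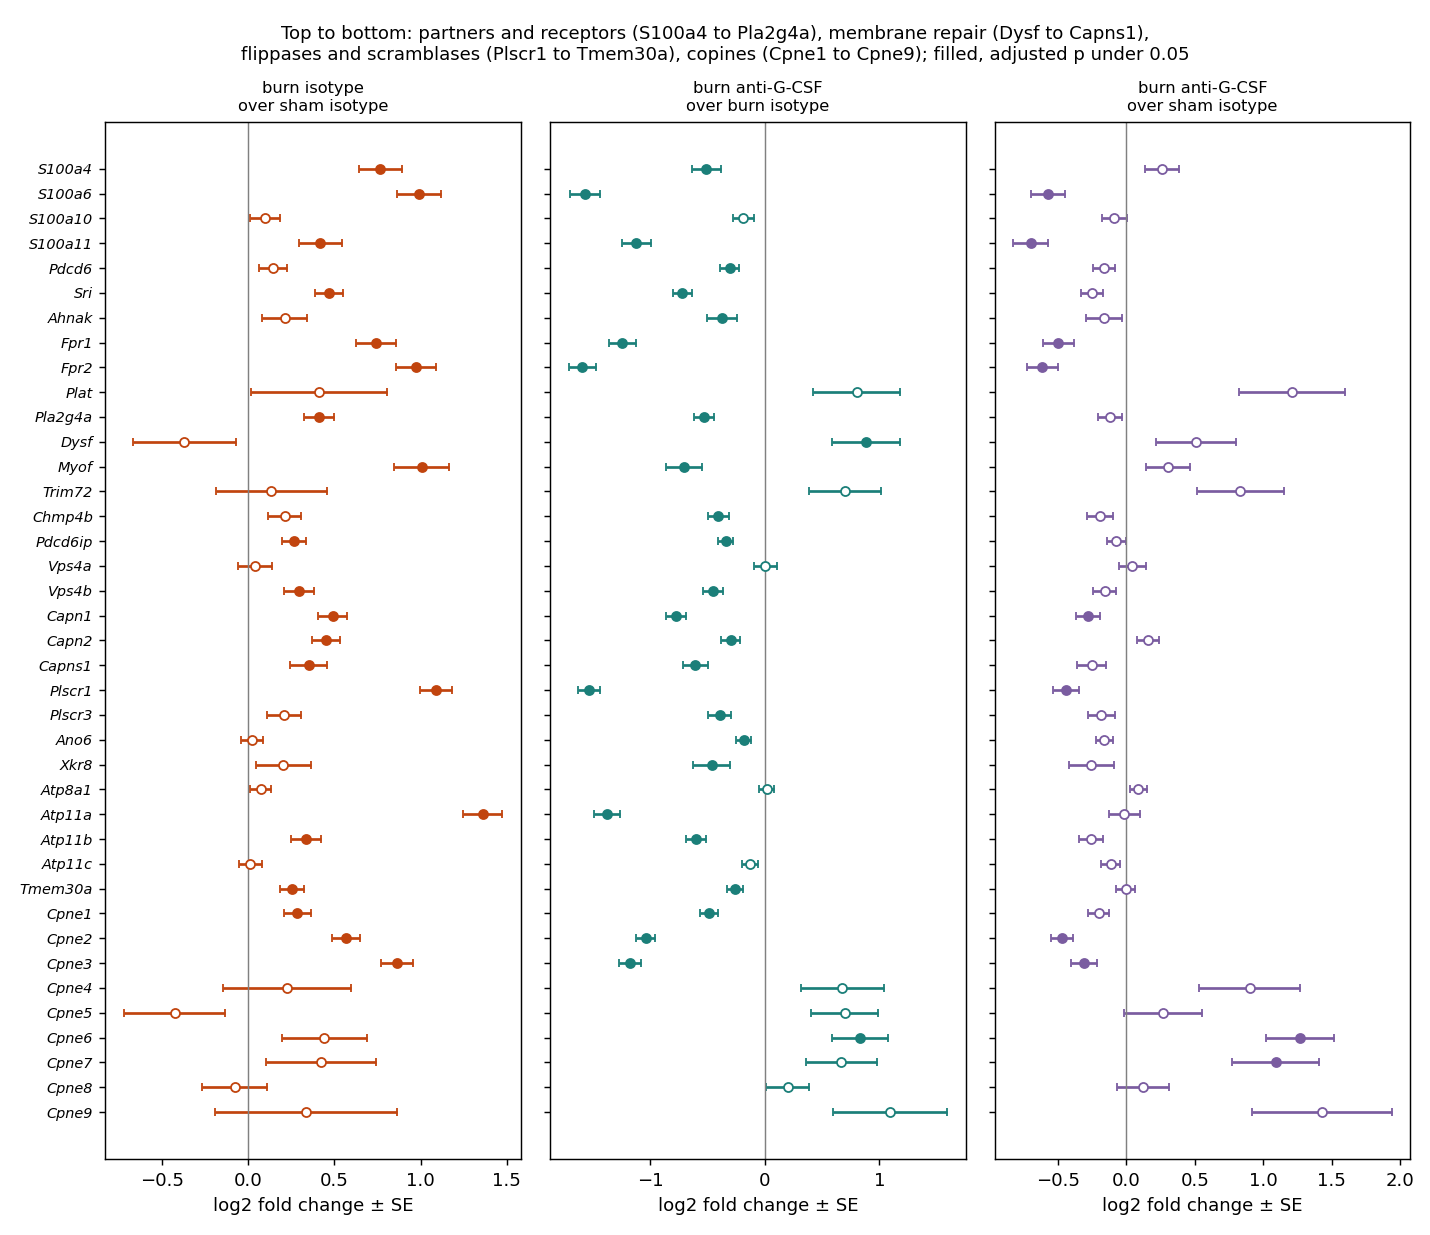
Log2 fold changes (points) with SE (bars) of genes of the 4 related lists in 3 comparisons; filled points had an edgeR adjusted p under 0.05, and the horizontal scales differ between panels. Fpr2, S100a6, Plscr1 and Atp11a lie farthest to the left in the middle panel, at -1.38 or below, and S100a10 is open in all 3.

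Cell type markers moved beside the annexins. The summed level of 12 neutrophil markers was 27367 to 35916 CPM with anti-G-CSF after burn, 80463 to 97350 CPM in burn isotype marrow and 43505 to 55441 CPM in sham marrow. All 12 rose after burn, fell with anti-G-CSF relative to burn isotype marrow and were lower with anti-G-CSF than in sham marrow. The 12 calls of the first 2 comparisons held without replicates 9 and 12 and with the brain covariate, but against sham only 1 of 12 was then called without those libraries and 0 of 12 with the covariate. Anxa1, Anxa3 and Anxa11 were called in the same direction in each of these comparisons, and the part of the neutrophil share in their values was not tested.

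Monocyte markers, 8 genes, summed to 1923 to 2826 CPM with anti-G-CSF after burn, 3456 to 4928 CPM in burn isotype marrow and 2387 to 2666 CPM in sham marrow, and 7 rose after burn while 6 fell with anti-G-CSF relative to burn isotype marrow. Without replicates 9 and 12, 5 monocyte markers fell between the burn groups, and with the brain covariate 5 fell and 1 rose. Against sham 1 was lower with anti-G-CSF, and 0 in both of those settings. Resident macrophage markers, 10 genes, went the other way, at 881 to 1150 CPM with anti-G-CSF after burn, 540.3 to 692 CPM in burn isotype marrow and 947 to 1173 CPM in sham marrow, and 9 fell after burn. Red cell precursor markers, 7 of 11 of which passed the filter, summed to 8017 to 12728 CPM with anti-G-CSF after burn, 3597 to 5138 CPM in burn isotype marrow and 8222 to 8851 CPM in sham marrow. All 7 fell after burn and were higher with anti-G-CSF than in burn isotype marrow, as were all 8 B lineage markers, which summed to 941 to 1448, 451 to 755 and 1234 to 1406 CPM in these groups. Eosinophil and basophil markers, 6 genes, summed to 2002 to 3628 CPM with anti-G-CSF after burn, 2117 to 3154 CPM in burn isotype marrow and 3529 to 6787 CPM in sham marrow. All 6 fell after burn, 0 were called between the burn groups, and 4 were lower with anti-G-CSF than in sham marrow (1 without replicates 9 and 12, 0 with the brain covariate). Of 7 T and NK cell markers 4 fell after burn, and with anti-G-CSF 2 were higher and 1 lower than in burn isotype marrow and 1 lower than in sham marrow. Between the burn groups 1 T and NK cell marker was higher without replicates 9 and 12 and 4 with the brain covariate, and 0 were called against sham in both settings. Of 6 megakaryocyte and 7 stroma and endothelium markers 1 each fell after burn, and 0 and 2 were higher with anti-G-CSF than in burn isotype marrow (0 and 1 in both of those settings). The part of these shifts in the annexin values was not tested either.

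Of the 16 brain markers 1 was higher after burn than in sham marrow, and with anti-G-CSF 10 were higher than in burn isotype marrow and 11 than in sham marrow. Heart markers, 8 genes, summed to 504 to 1037 CPM with anti-G-CSF after burn, 208 to 583 CPM in burn isotype marrow and 293 to 360 CPM in sham marrow, and 8 of 8 were higher with anti-G-CSF than in either other group, but 0 of 8 without replicates 9 and 12. Lens markers, 8 genes, summed to 166 to 362, 66.5 to 186 and 89.4 to 114 CPM in these groups. Without replicates 9 and 12, 1 brain marker and 0 lens markers were higher with anti-G-CSF than in burn isotype marrow, and 0 of either list than in sham marrow. The median log2 fold changes against sham were still 0.71 for brain, 0.69 for heart and 0.66 for lens markers. Relative to burn isotype marrow they were 0.35, 0.39 and 0.33. Leaving out these libraries therefore did not remove the tissue difference, and only 18 of 15598 genes were then called higher against sham. These tissue markers were higher in the group where Anxa1, Anxa3 and Anxa11 were lower than in sham marrow. With the brain markers as a covariate those 3 calls were lost, but only 10 genes were then called higher and 4 lower in all. Because the brain markers differ with the group, the 2 cannot be told apart here. The part of these tissue transcripts in the annexin values was not tested.

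**Figure D5:**
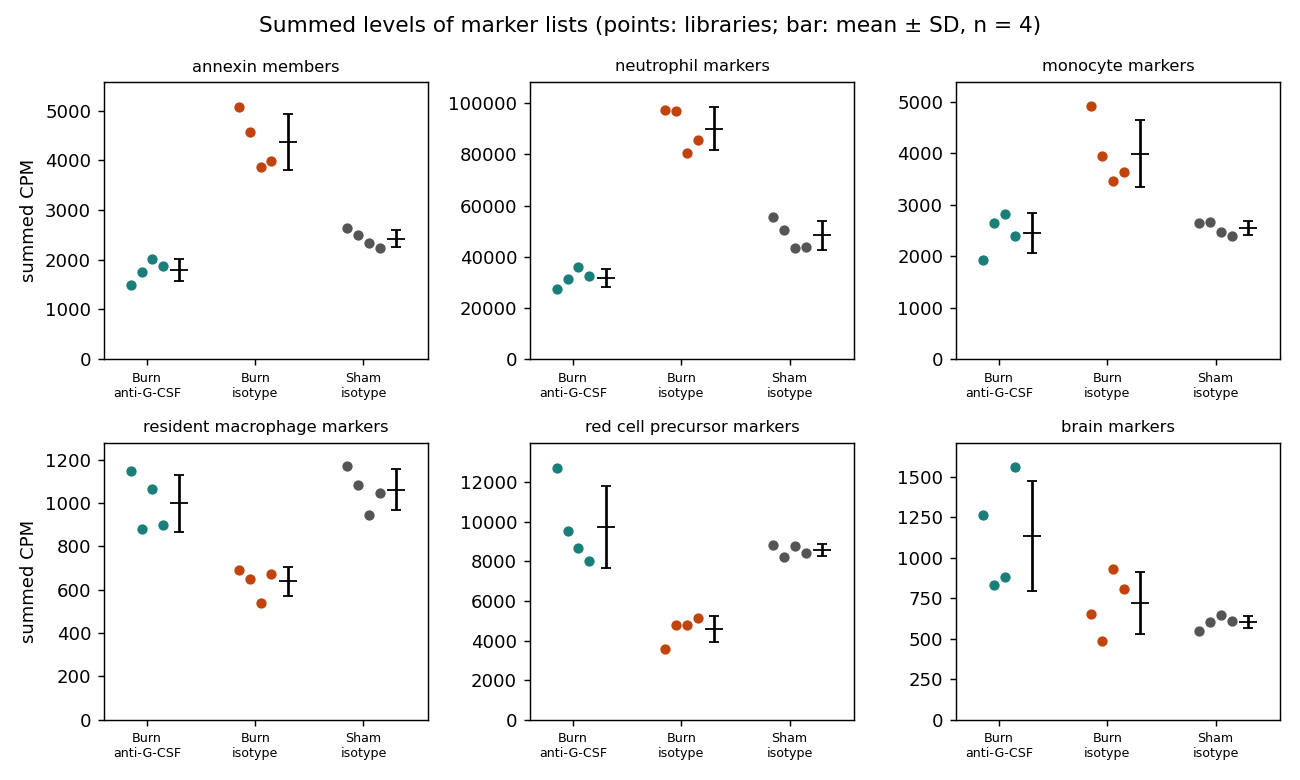
Summed CPM of the 8 annexin genes and of 5 marker lists in each library (points), with the mean ± SD of 4 libraries per group; each panel has its own linear axis from 0. Annexin, neutrophil and monocyte sums are highest in burn isotype marrow, and macrophage and red cell precursor sums are lowest there.

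Promoter sequence was available for 6 of the 8 genes in RefSeq (GRCm38.p6), and Anxa3 and Anxa6 were not among them. The 250 bases before the start were searched on both strands for the letters TTCNNNGAA (STAT factors, which act downstream of the G-CSF receptor), TTNNGNAA (C/EBP factors of granulocyte genes) and GAGGAAGT (PU.1), and for the letters AGATAA of GATA factors. Of all 32851 promoters of this length, 7.02% hold the STAT letters, 36.85% the C/EBP letters, 2.44% the PU.1 letters and 9.99% the GATA letters. Anxa1, shown as the gene with the largest fold changes, held the C/EBP letters once, 143 bases before the start, and the 30 bases around them are printed. All 250 bases of the Anxa1 window lie within untranslated regions annotated for Anxa1 in the GENCODE models, and for that reason no more of it is shown. Anxa4, shown as a gene that passed in no comparison, held C/EBP letters 208 bases and GATA letters 43 bases before its second start. Matches are in capitals.
Anxa1, chr19:20390796-20390825, minus strand: tccgggagtagTTTTGCAAgacttgtttct
Anxa4, second start, chr6:86775115-86775364, minus strand: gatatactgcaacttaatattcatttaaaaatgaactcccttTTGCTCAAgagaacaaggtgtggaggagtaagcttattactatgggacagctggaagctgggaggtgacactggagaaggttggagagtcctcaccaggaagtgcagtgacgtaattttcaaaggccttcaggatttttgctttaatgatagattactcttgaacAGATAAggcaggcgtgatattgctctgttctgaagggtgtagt
Anxa11, chr14:25841905-25842154, plus strand: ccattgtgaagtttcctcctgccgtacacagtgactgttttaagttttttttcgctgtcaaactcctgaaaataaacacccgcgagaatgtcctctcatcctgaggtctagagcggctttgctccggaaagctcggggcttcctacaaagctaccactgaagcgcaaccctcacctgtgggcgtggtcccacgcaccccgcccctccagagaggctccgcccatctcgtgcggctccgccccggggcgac
The Anxa11 window held none of the 4 sets of letters and is shown as a gene that moved with Anxa1, and none was found for Anxa2, Anxa5 or Anxa7. No promoter of the 6 genes held the STAT or PU.1 letters. A match describes letters in this window only.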

How the data were processed

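Counts per gene, whole and not normalised, were used as the authors deposited them, in 1 table with a column per library and 0 unused sample columns. Per the labels' protocols, polyadenylated RNA was selected from total RNA and made into strand-specific libraries; the same text names depletion of ribosomal and globin RNA as another input. TopHat2 and mm10 appear in the submitters' processing notes. Counter, strand setting and gene models were not given in the sources used here, and genes with overlapping or antisense partners are therefore uncertain. Start positions count from 0 in the table and were raised by 1.

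Groups came from the labels, which do not say that each library is a separate mouse, so p-values cover the spread between libraries, possibly a technical one. No pair of libraries looked like a duplicate. edgeR 4.0.16 in R 4.3.3 (filterByExpr, TMM scaling, robust quasi-likelihood test, 2-sided, Benjamini-Hochberg over 15283 genes, threshold 0.05) took all 12 libraries together, with a mean for each group and 9 residual degrees of freedom. CPM uses the TMM-scaled totals. The test was also run on simulated counts with fewer changed genes than were called for burn against sham. That run cannot show how the test behaves with a shift as wide as in these data. Ratios to Anxa1 and list counts without doubted libraries were added after seeing the data. Python 3.11.15 was used for annotation and plots. Exon lengths and coding sequences came from GENCODE and promoters from RefSeq. The members, the gene lists, the alternatives and the rule for named genes (all annexins, and up to 4 genes per list with the smallest p in a comparison) were chosen with earlier results of these data known; S100a10 was named after its values were seen. Alternatives were other scalings and filters, DESeq2 1.42.0, limma-voom (limma 3.58.1), fewer groups, a threshold of 0.01, the brain marker score as a covariate, and libraries left out.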

Additional observations from a re-analysis of the deposited data

Results flagged for a closer look

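None of the 8 annexin genes had a library far from the other 3 of its group. Among 144 groups of 4 libraries checked over these genes, Anxa9 and the related lists, 10 had a highest or lowest library set apart by Dixon's 95% criterion, where chance gives about 1 in 20. Burn isotype replicate 5 was high for Plscr1 (99.3 CPM, others from 76.5 to 78.1), Atp8a1 (197 CPM) and Tmem30a (215 CPM). Sham replicate 1 was high for Plscr1 (43.3 CPM) and Tmem30a (181 CPM). S100a10 was high in anti-G-CSF replicate 11 (132 CPM, others up to 123) and Vps4a in anti-G-CSF replicate 12 (56.7 CPM). Anxa9 was high in burn isotype replicate 7 (7.08 CPM, others up to 5.49). Plat was high in sham replicate 3 (1.67 CPM) and Cpne9 low in burn isotype replicate 6 (0.256 CPM), both at levels of few counts.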

How the results depend on the processing

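Anxa1, Anxa2, Anxa3, Anxa11 and Anxa7 kept their direction and their call under all 23 alternatives in burn isotype against sham and in anti-G-CSF against burn isotype; the Anxa1 log2 fold change ran from 0.95 to 1.11 and from -1.72 to -1.48. Over both comparisons, the weak point was Anxa5, whose rise was also lost at a threshold of 0.01. Against sham, Anxa2 passed with the DESeq2 Wald test (-0.36, adjusted p = 0.0340) and without anti-G-CSF replicate 11 (edgeR adjusted p = 0.0426), with an adjusted p of 0.0340 to 0.989 over all alternatives.

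Values that never passed changed sign in some settings. Anti-G-CSF against burn isotype gave Anxa6 0.064 with upper quartile scaling, 0.18 with library size only, 0.10 with the brain covariate, 0.054 without replicates 9 and 12 and -0.060 to 0.070 with 1 library left out, and Anxa4 0.026 with library size only and 0.00025 with the brain covariate. Against sham, Anxa7 was 0.0023 with library size only, and Anxa7, Anxa5 and Anxa6 were 0.017, 0.074 and 0.0097 with the brain covariate; Anxa4 ran from -0.0068 to 0.15 with 1 library left out.

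Counts over all genes moved more. For anti-G-CSF against burn isotype they were 2703 higher and 2582 lower, but 5762 and 1673 with library size only, which put the median gene at 0.26, above the 0.18 of Anxa6, and 3769 and 2193 with upper quartile scaling. Higher calls were 1602 with only those groups fitted, 1208 at 0.01, 1348 with the brain covariate (1558 lower) and 1280 without replicates 9 and 12. With 1 library left out they ran from 1639, without burn isotype replicate 5, to 3045. For burn isotype against sham they were 1691 higher and 1516 lower, but 1276 and 2846 with library size only and 1127 and 841 at 0.01. For anti-G-CSF against sham they were 1083 higher and 598 lower, but 1294 and 376 with library size only, 50 and 92 at 0.01, 1007 lower with DESeq2, 10 and 4 with the brain covariate and 18 and 17 without replicates 9 and 12, with 0 members lower in these last settings. With 1 library left out they ran from 148 to 1414 higher and from 177 to 857 lower; both counts were under 300 without sham replicates 1, 2 and 4 and anti-G-CSF replicates 9 and 12, and higher calls were 638 without sham replicate 3. The cause of these changes in the counts was not tested.

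No paired analysis was possible because the groups share no replicate numbers. Limits are 4 libraries a group, whole marrow, no sham marrow with anti-G-CSF, and brain, heart and lens transcripts that differ between groups.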
